A study of Mus musculus with 6 samples.

Results

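The genes described here are 10 mouse genes of mitochondrial fusion, fission and mitophagy, taken by symbol from the 55487 genes of the deposited table, and all 10 were found in it. They are the fusion GTPase genes Mfn1, Mfn2 and Opa1, the fission genes Dnm1l, Fis1, Mff and Mief1, and the mitophagy genes Pink1, Bnip3l and Fundc1. Expression had been measured by RNA sequencing in 6 libraries of oocytes that were matured in culture, 3 labelled control and 3 labelled metformin. Both groups came, per the labels, from females given 10 IU of pregnant mare serum gonadotropin, whose germinal-vesicle oocytes were taken 46 to 48 h later, freed of cumulus cells and kept for 16 h in M16 medium until the metaphase II stage. The groups differed by metformin in the medium, a biguanide diabetes drug that acts on mitochondrial respiration and activates the energy sensor AMPK. The protocol lists 10, 20 and 50 μM, and the sequenced dose, the strain and the number of oocytes per library are not stated. The series title gives aged mice as the source, and no sample from young mice was analysed here. The comparison asked which transcripts differ after maturation with the drug.

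Mitochondria join and divide continuously. Mitofusins on the outer membrane and OPA1 on the inner membrane carry out fusion, while the dynamin-related GTPase DRP1, the product of Dnm1l, constricts mitochondria after adaptors on the outer membrane have recruited it. Damaged mitochondria can be removed by mitophagy along a route in which the kinase PINK1 marks them with phosphorylated ubiquitin, or by receptors of the outer membrane that bind the autophagosome directly. In the mouse, the oocyte supplies the mitochondria of the embryo, and loss of Dnm1l or Mfn1 from oocytes is known to impair fertility.

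All 12 oocyte markers examined, such as Gdf9 and Zp3, had at least 3285 reads in every library, with a summed level of 42360 to 45930 CPM in the controls and 39040 to 54360 CPM with metformin (CPM is the usual depth-scaled read count, here on TMM-adjusted totals). The cumulus and granulosa list stood at 49.1 to 53.7 and 48.8 to 60.8 CPM, where Cyp19a1 (318 to 489 reads) and Kitl (78 to 109) were the most counted and Amh, Foxl2 and Ptx3 were at 0 reads, and the stroma, theca and endothelial list at 34.8 to 41.0 and 31.2 to 43.1 CPM, where Pecam1 (230 to 365 reads) and Kdr (44 to 62) were the most counted and Cyp17a1 was at 0. Blood and immune markers summed to 36.0 CPM in control replicate 1, mostly from haemoglobin genes, and to between 2.84 and 4.12 CPM elsewhere; no member passed without that library. Libraries held 8622281 to 10588292 counted reads.

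Transcripts for the 3 roles differed greatly in level within each role, and the same members were scarce in every library. Levels of different genes are compared per length, first as the FPKM values that the authors deposited. As counted, Dnm1l was the most abundant member at 27.6 FPKM (mean of 6 libraries, range 24.8 to 29.2). Bnip3l at 18.7 (12.2 to 22.7) and the fission adaptor gene Mff at 17.4 (14.8 to 19.8) followed. Mfn1 at 9.25 FPKM (7.12 to 11.1), Fundc1 at 7.98 (6.61 to 9.12), Opa1 at 5.40 (4.67 to 5.97) and Fis1 at 3.22 (2.36 to 3.86) came next. Mief1 at 0.358 FPKM (0.251 to 0.581), Mfn2 at 0.229 (0.157 to 0.336) and Pink1 at 0.105 (0.0239 to 0.210) were the lowest. Ranges overlapped between Bnip3l and Mff, between Mfn1 and Fundc1, between Mief1 and Mfn2 and between Mfn2 and Pink1, so the order within those pairs was not clear. The Bnip3l values leave out the reads assigned to its near-identical pseudogene, described below. The place of Bnip3l relative to Dnm1l and Mff in FPKM is therefore uncertain. Dnm1l exceeded 88.7% of the 12793 tested genes in FPKM and Mfn2 exceeded 6.78% of them.

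**Figure D1:**
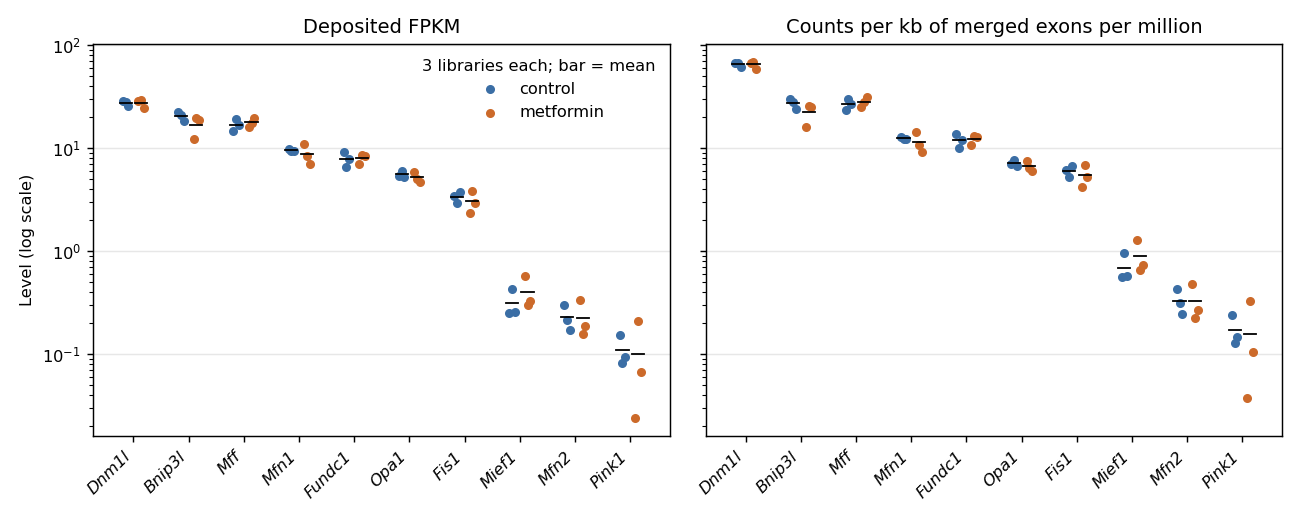
Level of each of the 10 genes in each library on a log scale, as deposited FPKM (left) and as CPM per kilobase of merged exons on unscaled totals (right), with points for the 3 control and 3 metformin libraries and bars at group means. Dnm1l stands highest and Mief1, Mfn2 and Pink1 lowest on both scales, and the points of the groups intermingle for every gene.

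The FPKM values had been divided by an unusual length. For 4183 of 4308 genes with at least 200 reads in every library, and for all 10 members, the length implied by count and FPKM was within 0.1% of the summed length of all distinct annotated exons, in which overlapping exons of different transcripts are counted repeatedly. For the members that length exceeded the merged exons by 1.28-fold for Opa1 to 2.37-fold for Dnm1l. Over the 4308 genes the median was 1.33-fold. The FPKM is lowered most for genes whose annotated exons overlap each other most. The shares of tested genes that Dnm1l and Mfn2 exceeded rest on this FPKM and were not computed on another scale. When CPM on unscaled library totals was divided instead by kilobases of merged exons, Dnm1l stood at 65.3 (58.8 to 69.1), Mff at 27.5 (23.4 to 31.3), Bnip3l at 24.9 (16.2 to 30.1), Fundc1 at 12.1 (10.1 to 13.9) and Mfn1 at 12.1 (9.28 to 14.5). Opa1 at 6.91, Fis1 at 5.78, Mief1 at 0.797, Mfn2 at 0.330 and Pink1 at 0.166 followed. On this scale the ranges of Opa1 and Fis1 overlapped and those of Mief1 and Mfn2 did not. Divided by the longest annotated transcript, a scaling added after the data were seen, Dnm1l at 85.6 and Mff at 68.6 were again highest but overlapped, and Fis1 at 10.5 averaged above Opa1 at 8.73. Mief1, Mfn2 and Pink1 were the lowest members on all 3 scales.

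The 2 mitofusin genes differed widely in level. They encode related outer-membrane GTPases that tether mitochondria to each other, and MFN2 also links them to the endoplasmic reticulum. Mfn1 (ENSMUSG00000027668, GRCm38 chromosome 3, 32529465 to 32579239, plus strand) had 736, 652 and 763 reads in control and 879, 677 and 601 in metformin libraries. Mfn2 (ENSMUSG00000029020, chromosome 4, 147873599 to 147904704, minus strand) had 21, 14 and 13 reads in control and 25, 12 and 15 in metformin libraries. The FPKM of Mfn1 was 44.0 ± 11.1 times that of Mfn2 in control and 41.3 ± 10.5 times in metformin libraries (SD, n = 3 each), with single libraries between 33.0 and 55.2. Per kilobase of merged exons the ratio averaged 38.5 over the 6 libraries. Between groups the log2 ratio gave p = 0.8 (two-sided exact permutation test, n = 3 each, for which 0.1 is the smallest possible p).

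No fusion gene passed the test between groups. In CPM, Mfn1 stood at 77.2, 73.5 and 78.6 in control and at 83.4, 66.3 and 61.3 in metformin libraries. The highest and the lowest of these values were both metformin libraries. The log2 fold change of Mfn1 was -0.12 (SE 0.156, 95% interval -0.46 to 0.22). Mfn2 averaged 1.71 ± 0.445 CPM in the controls and 1.69 ± 0.614 CPM with metformin (SD, n = 3 each), and its interval was wide, from -0.85 to 0.83, around a log2 fold change of -0.01. Opa1 (ENSMUSG00000038084, chromosome 16, 29579334 to 29654884, plus strand) stood at 53.5, 58.5 and 55.7 CPM in the controls and at 56.1, 50.9 and 50.8 CPM with metformin. Its log2 fold change was -0.09 (SE 0.143, interval -0.40 to 0.23), and the groups overlapped through metformin replicate 1.

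The fission genes likewise showed no difference that passed. Dnm1l (ENSMUSG00000022789, chromosome 16, 16312230 to 16358959, minus strand) was the steadiest member, at 343, 339.5 and 332 CPM in the controls and 330.5, 359 and 331 CPM with metformin. Its coefficient of variation over the 6 libraries was 3.18%, against a median of 13.9% for tested genes averaging at least 10 CPM. Those genes were not matched to Dnm1l in abundance. Counting by itself gives 1.74% at the mean of 3315 reads of Dnm1l and 10.1% at the 97.2 reads of Fis1. The log2 fold change of Dnm1l was 0.01 (SE 0.121), and its 95% interval ran from 0.837-fold to 1.21-fold, the narrowest among the members.

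DRP1 has no membrane anchor, and its docking proteins were unequal in transcript level. Mff (ENSMUSG00000026150, chromosome 1, 82724890 to 82752394, plus strand), which encodes a tail-anchored adaptor that AMPK phosphorylates in human and mouse cells, stood at 222, 287 and 272 CPM in the controls and 233, 274 and 330.4 CPM with metformin. The log2 fold change of Mff was 0.10 (SE 0.160, interval -0.25 to 0.45). Fis1 (ENSMUSG00000019054, chromosome 5, 136953275 to 136966234, plus strand), another outer-membrane protein gene of fission, stood at 10.4, 8.80 and 12.1 CPM in the controls and 6.83, 11.9 and 9.80 CPM with metformin, with a log2 fold change of -0.13 (SE 0.244, interval -0.67 to 0.40). In FPKM, Mff exceeded Fis1 by 4.27-fold to 6.80-fold and Mief1 by 27.6-fold to 65.6-fold in single libraries.

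Mief1 (ENSMUSG00000022412, chromosome 15, 80234018 to 80253371, plus strand) encodes MiD51, a DRP1 receptor of the outer membrane. It had 42, 67 and 47 reads in control and 104, 55 and 63 reads in metformin libraries. Metformin replicate 1 was the highest library, and the other 2 metformin libraries lay within the control range. Its log2 fold change of 0.37 (SE 0.299, interval -0.28 to 1.03, unadjusted p = 0.238) was the largest among the members, and it was 0.08 without metformin replicate 1. The gene for the related receptor MiD49, Mief2, had 0 reads in all 6 libraries, where 3 reads correspond to between 0.283 and 0.348 CPM on unscaled totals.

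Among the mitophagy genes, transcripts of the receptors Bnip3l and Fundc1 were plentiful and those of Pink1 were near the limit of counting. Pink1 (ENSMUSG00000028756, chromosome 4, 138313409 to 138326307, minus strand) had 6, 3 and 4 reads in control and 1, 9 and 3 in metformin libraries. Each group summed to 13 reads. On unscaled totals this was 0.464 CPM in control (exact Poisson 95% interval 0.247 to 0.793) and 0.424 CPM with metformin (0.226 to 0.725). Both intervals cover counting error only. Pink1 was the single member below the filter on low counts and was not tested. Usp30, which encodes a deubiquitinase of the outer membrane that opposes this route, stood far above it at 7.93 FPKM (6.84 to 9.12). The Usp30 count is not exact, because 5.4% of its exonic bases are shared with Alkbh2 on the opposite strand, which held 276 to 381 reads.

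Fundc1 (ENSMUSG00000025040, chromosome X, 17556564 to 17572325, minus strand) encodes a receptor linked to mitophagy under low oxygen. It stood at 31.8, 23.0 and 29.3 CPM in the controls and 23.9, 31.1 and 32.8 CPM with metformin, and each group held both high and low libraries. The log2 fold change of Fundc1 was 0.06 (SE 0.191, interval -0.36 to 0.48). In FPKM it exceeded Pink1 by at least 41.5-fold in each library, although the 1 to 9 reads of Pink1 make any such ratio imprecise. The related gene Fundc2 had 2, 2 and 3 reads in control and 5, 6 and 5 in metformin libraries, too few to be tested.

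**Figure D2:**
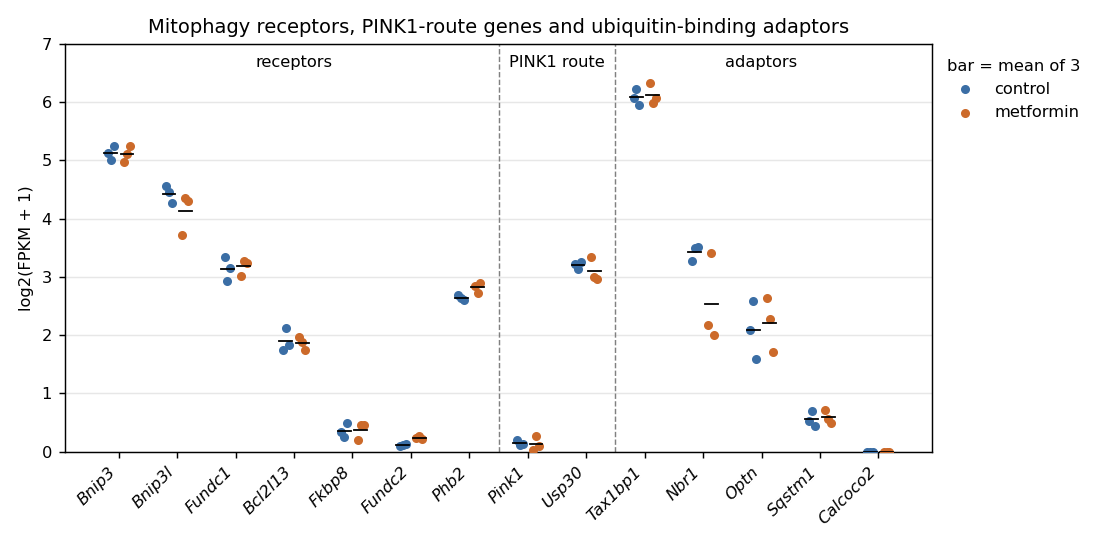
Level of mitophagy genes in each library as log2(FPKM + 1), with receptors on the left, Pink1 and Usp30 in the middle and ubiquitin-binding adaptors on the right (points, 3 control and 3 metformin libraries; bars, group means). Bnip3, Bnip3l and Fundc1 stand well above Pink1, and among adaptors Tax1bp1 is highest while Calcoco2 is listed at 0.

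Bnip3l encodes NIX, the receptor that clears mitochondria from maturing red blood cells, and its reads could not be separated with certainty from those of a pseudogene. The gene lies on GRCm38 chromosome 14 (ENSMUSG00000022051, 66985239 to 67008877, minus strand). An intronless transcribed copy, Bnip3l-ps, lies on chromosome 12 (18216542 to 18217673, plus strand). The 657-base coding sequence of Bnip3l differs from the copy at 4 positions (99.39% identity) and matches it without a break over 387 bases. Transcripts of both loci align over 1131 bases at 99.4% identity. The longest annotated Bnip3l transcript has 3259 bases, so part of it lies outside that match.

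Reads were assigned to both. Bnip3l had 1080, 929 and 944 reads in control and 620, 1016 and 1018 in metformin libraries. Bnip3l-ps had 735, 629 and 639 reads in control and 702, 784 and 734 in metformin libraries. Bnip3l thus took 59.5%, 59.6% and 59.6% of the pair's reads in control and 46.9%, 56.4% and 58.1% in metformin libraries. Metformin replicate 1 stood apart, with a Wilson 95% interval of 44.2% to 49.6% against a lowest bound of 54.1% in the other 5 libraries. These intervals cover counting error only, since PCR copies of cDNA are not independent molecules. How the counting program treated reads that match both loci is not given in the sources used here.

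**Figure D3:**
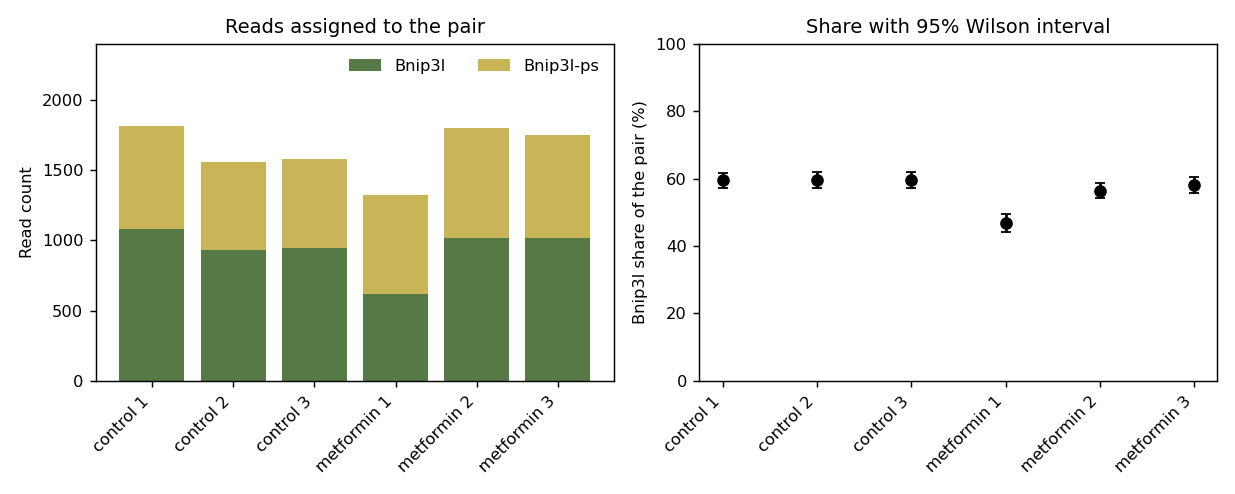
Reads assigned to Bnip3l and to its pseudogene Bnip3l-ps in each library (left, stacked bars) and the Bnip3l share of the pair with 95% Wilson intervals (right). The share is 46.9% in metformin replicate 1 and between 56.4% and 59.6% in the other libraries.

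Bnip3l stood at 113, 105 and 97.3 CPM in the controls and 58.8, 99.5 and 104 CPM with metformin. One metformin library was far below the other 5, which overlapped between groups. The log2 fold change of Bnip3l was -0.27 (SE 0.202, interval -0.71 to 0.18, unadjusted p = 0.213), and it was -0.05 without metformin replicate 1. Counted together with Bnip3l-ps, a setting chosen after the data were seen, the pair stood at 176 ± 13.6 CPM in the controls and 160.2 ± 30.2 CPM with metformin (SD, n = 3 each), a log2 fold change of -0.14 (SE 0.159, interval -0.49 to 0.21). The pseudogene alone had a log2 fold change of 0.03. Bnip3, the close relative of Bnip3l, stood at 33.9 FPKM (30.6 to 37.2), with a log2 fold change of 0.01. As counted, it was above Bnip3l in all 6 libraries by 1.49-fold to 2.50-fold. The Bnip3l values in that comparison leave out the 629 to 784 reads per library assigned to Bnip3l-ps, so the order is not firm. Bnip3 also has near-identical copies, of which Gm6532 held 42 to 55 reads and the antisense-matching AC160336.1 held 80 to 113, so its count is uncertain to that extent.

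Of the 10 genes, 9 were tested and 0 passed at an adjusted p under 0.05 by edgeR's quasi-likelihood test (adjusted p = 1.00 for each), where 0.0391% of all 12793 tested genes passed, 0.0235% as higher and 0.0156% as lower. None of the 9 had an unadjusted p under 0.05, against 1.5% of all genes, and DESeq2 and limma-voom also called 0. Control and metformin libraries overlapped for all 9, against 5.63% of all genes without overlap. Fitted changes lay above 0 for 4 and below 0 for 5, around a median of -0.01 (log2), beside 52.5% above 0 and a median of 0.01 over all genes. The 95% intervals, not adjusted for the number of genes, stayed within 0.727-fold and 1.39-fold for Mfn1, Opa1, Dnm1l, Mff and Fundc1. They were wider for Bnip3l, from 0.612-fold to 1.13-fold, for Fis1, from 0.629-fold to 1.32-fold, and for the scarce Mfn2 and Mief1, where changes up to 1.78-fold and 2.04-fold lay inside.

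**Figure D4:**
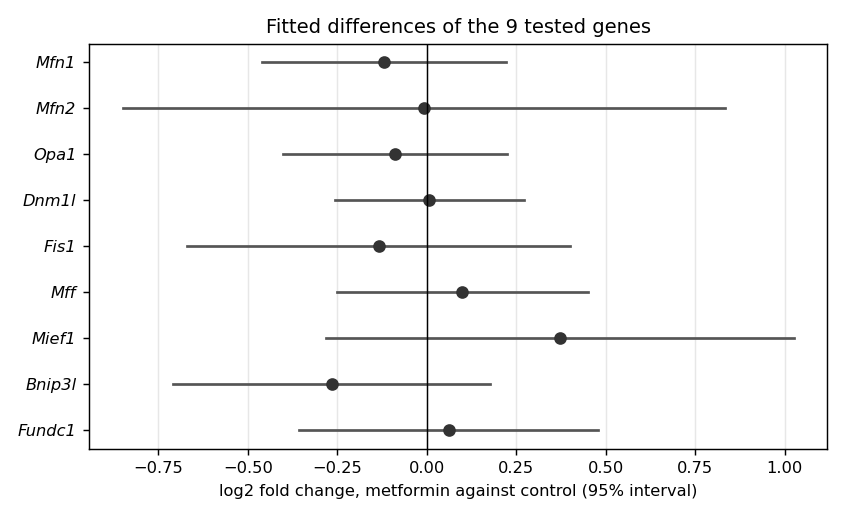
Log2 fold change of metformin against control for the 9 tested genes, with 95% intervals from edgeR's quasi-likelihood fit. Every interval includes 0, and those of Mfn2 and Mief1 are the widest.

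Libraries of the same group differed from each other, and control and metformin libraries overlapped for each of the 10 genes. Metformin replicate 1 held the highest or the lowest CPM for 7 of the 10 genes, the highest for Mfn1, Mfn2 and Mief1 and the lowest for Dnm1l, Fis1, Pink1 and Bnip3l. Among the other libraries, control replicate 3 held an extreme for 1 gene and metformin replicate 3 for 4. Such extremes were not counted over all genes, so a trait of the whole library cannot be told apart from one of these genes. The highest library exceeded the lowest by 1.08-fold for Dnm1l, 1.15-fold for Opa1, 1.49-fold for Mff, 1.93-fold for Bnip3l and 2.24-fold for Mief1. For Mfn2 the coefficient of variation of 28.2% was close to the 24.5% that counting about 16.7 reads gives by itself, whereas for Bnip3l it was 19.9% against 3.27% from counting and for Mff 14.5% against 1.95%.

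**Figure D5:**
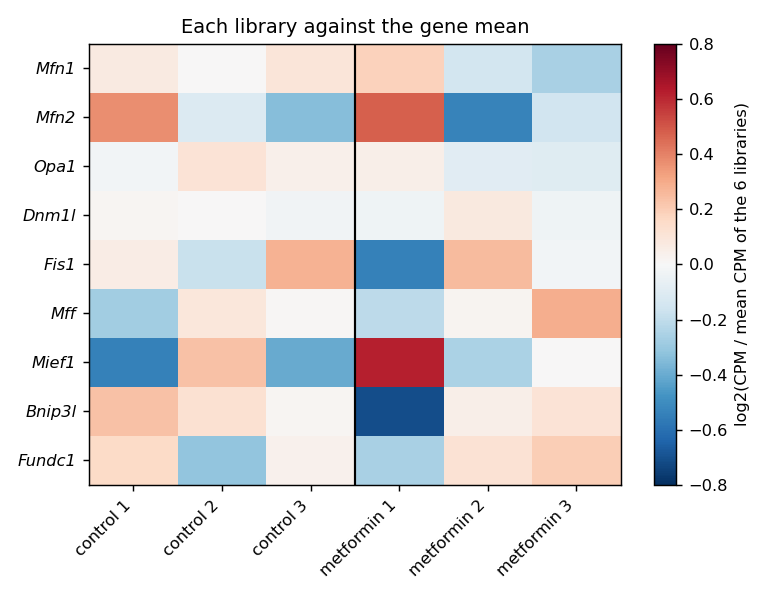
CPM of each tested gene in each library relative to the gene's mean over the 6 libraries, on a log2 scale (red higher, blue lower; the line divides control from metformin libraries). The strongest colours lie in metformin replicate 1, for Mief1 and Bnip3l, and no gene has one colour on each side of the line.

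The makeup of the set by role is given as a description. By summed FPKM of the 10 genes, fission genes took 52.3% ± 2.28 in control and 55.4% ± 0.850 in metformin libraries, mitophagy genes 31.0% ± 2.40 and 28.3% ± 4.61, and fusion genes 16.7% ± 0.237 and 16.3% ± 3.76 (SD, n = 3 each). Per kilobase of merged exons, fission genes took 62.4% ± 1.95 and 65.2% ± 1.16. On both scales each metformin library had a larger fission share than each control library, whereas the shares of fusion and of mitophagy overlapped between groups. In FPKM the highest control share of fission was 54.0% and the lowest metformin share was 54.9%. Per kilobase of merged exons they were 63.9% and 64.3%. Even full separation of 3 against 3 libraries could reach no less than p = 0.1 in a two-sided exact permutation test, which was not run here. The shares are parts of the same whole and so are not independent. No fission gene by itself separated the groups. The summed levels leave out the reads assigned to Bnip3l-ps. They carry no test, because the members were chosen with results of these libraries known.

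Around these 10 genes, 89 further genes of the same processes were examined in 6 lists. Of the 74 that reached the test, 0 passed by edgeR, none had an unadjusted p under 0.05, and DESeq2 and limma-voom called 0. Fitted changes lay above 0 for 35 and below 0 for 39, around a median of -0.02 (log2). The groups did not overlap for 3 of the 74, Phb2, Senp5 and Rhot2, beside 5.63% of all tested genes.

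In the list of inner-membrane proteases, cristae proteins and fusion partners, 16 of 18 genes were tested. Parl, which encodes the inner-membrane protease that cleaves PINK1, stood at 14.3 FPKM (12.7 to 15.9), and Oma1, the stress-activated protease of OPA1, at 11.03 (8.73 to 13.2). Phb2, an inner-membrane prohibitin that also serves as a mitophagy receptor, stood at 25.2 ± 0.668 CPM in the controls and 29.7 ± 3.67 CPM with metformin (SD, n = 3 each), giving a log2 fold change of 0.24 with an SE of 0.165. For Stoml2, a scaffold gene of the inner membrane, it was 0.21 with an SE of 0.197. The adjusted p was 1.00 for both (edgeR). Miga1 and Miga2, which encode the mitoguardins, outer-membrane proteins that promote fusion through a mitochondrial phospholipase, had 0 to 4 reads per library.

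Of the 16 other fission factors 11 were tested. Mtfr2, a gene of the family of mitochondrial fission regulators, stood at 286 FPKM (265 to 310.1), above every one of the 10 members, and had a log2 fold change of 0.01. Fnbp1l stood at 26.6 FPKM, and Spire1, an actin nucleator gene whose product has a mitochondrial form, at 25.1. For Mtfr1 and Mtfr1l, relatives of Mtfr2, the log2 fold changes were -0.14 with an SE of 0.214 and -0.32 with an SE of 0.343, and the adjusted p was 1.00 for each (edgeR). Mtfp1, like Mief2, had 0 reads.

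Of the 15 genes for enzymes that modify DRP1 or MFF or for their partners, all were tested. Cyclin B1, whose kinase CDK1 phosphorylates DRP1 in M phase, had Ccnb1 at 284 FPKM (257 to 328). The count of Ccnb1 is uncertain, because the pseudogene Ccnb1-ps matches it at 99.2% identity and held 6412 to 8708 reads. Further copies were Gm12856 (98.1% identity, 3785 to 5035 reads), Gm8416 (97.3%, 1759 to 2219) and Gm4870 (94.4%, 233 to 267). Cdk1 stood at 37.6 FPKM (29.7 to 45.3). The AMPK catalytic subunit genes were low, Prkaa1 at 1.06 FPKM and Prkaa2 at 1.27, with log2 fold changes of -0.07 and 0.02. Senp5, a SUMO protease gene, stood at 23.7 ± 1.95 CPM in the controls and 28.6 ± 2.57 CPM with metformin, without overlap of the groups. Its count is uncertain, because it shares 131 exonic bases (1.8%) with Ncbp2 on the opposite strand, which held 436 to 1575 reads. For Aurka, the gene of a mitotic kinase, the log2 fold change was -0.18 with an SE of 0.157. Neither passed (adjusted p = 1.00, edgeR).

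Of 25 further mitophagy receptors, adaptors and ubiquitin enzymes 21 were tested. The adaptor gene Tax1bp1 was the most abundant at 68.2 FPKM (60.7 to 79.6), and Nipsnap2, whose product flags damaged mitochondria to adaptors, stood at 41.9 (33.4 to 48.6). Sqstm1, the gene of the adaptor p62, stood at 0.492 FPKM (0.352 to 0.647), and Calcoco2 had 0 reads. The count of Sqstm1 is uncertain, because 17.3% of its exonic bases are shared with Mrnip on the opposite strand, which held 129 to 204 reads. Tomm7, whose product stabilises PINK1 at the outer membrane, stood at 5.03 ± 1.43 CPM in the controls and 7.24 ± 1.77 CPM with metformin, and differed by 0.52 on the log2 scale (SE 0.282), with an unadjusted p of 0.0891 and an adjusted p of 1.00 (edgeR). Nbr1, another adaptor gene, named after its values were seen, had 880, 977 and 1160 reads in control and 380, 1072 and 348 in metformin libraries. Nbr1 differed by -0.87 on the log2 scale (SE 0.477), with an adjusted p of 1.00 (edgeR), and it passed without metformin replicate 2, at -1.59 (adjusted p = 0.0164, edgeR; at least 0.997 under the other alternatives).

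Mitophagy receptors and adaptors bind ATG8 proteins on the autophagosome. Of the 5 ATG8 genes 4 were tested, and Gabarapl2 stood highest at 15.6 FPKM (12.2 to 18.03), followed by Map1lc3a at 6.23 and Map1lc3b at 5.26. The log2 fold change was -0.25 with an SE of 0.262 for Map1lc3a and 0.23 with an SE of 0.240 for Map1lc3b, and neither passed (adjusted p = 1.00, edgeR). Near-identical pseudogenes took 115 to 202 reads beside Map1lc3b (Gm6055) and 29 to 52 beside Gabarapl2 (Gm3724), so their counts are uncertain to that extent. Among 10 genes of mitochondrial transport, 7 were tested. Rhot1, which encodes the outer-membrane GTPase MIRO1 that links mitochondria to motor proteins, had 1735, 2933 and 3896 reads in control and 1856, 1484 and 3517 in metformin libraries, and its log2 fold change of -0.43 had an SE of 0.464. Rhot2, the paralog of Rhot1, had 21 to 25 reads per library, and 29.4% of its exonic bases are shared on the same strand with Gm20683, which had 0 reads, so reads there may not have been counted. Kif5b, a kinesin motor gene, stood at 66.4 ± 1.52 and 67.3 ± 1.83 CPM, and for Trak2, an adaptor of that motor, the log2 fold change was -0.15 with an SE of 0.252. The adjusted p was 1.00 for all 4 (edgeR).

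Genes whose profile over the 6 libraries was most like that of the 3 most abundant members were found by the root mean square difference of log2 CPM from each gene's mean, among 6659 other genes averaging at least 10 CPM. For Dnm1l these were Scfd1, Lrig2 and Appbp2, at differences of 0.0299 to 0.0313. For Mff they were Mrpl21, Gm11448 and Socs4, at 0.0284 to 0.0591, and for Bnip3l they were Slc15a2, Fbxl5 and Ptbp1, at 0.0727 to 0.0886. These distances are a description over 6 libraries.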

How the data were processed

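Libraries were made with the SMART-Seq HT kit, per the labels' protocols; this kit primes on poly(A) tails, amplifies by PCR and keeps neither strand nor molecular identifiers, so tail length can affect capture and antisense reads cannot be separated. CASAVA 1.8, TopHat2 2.0.6 and the mm10 build are named in the submitters' processing notes; the counting program is not given in the sources used here. Per the file headers, the authors deposited raw read counts and FPKM values per gene. Symbols and GRCm38 coordinates came from GENCODE M21 (55141 of 55487 identifiers matched).

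Counts were tested with edgeR 4.0.16 (quasi-likelihood, robust, TMM scaling, filterByExpr with min.count 10, no term but group) over 12793 genes, with Benjamini-Hochberg adjustment and a threshold of 0.05. The SE is the log2 fold change divided by the square root of F. FPKM entered no such test. Similar transcripts were sought with blastn 2.17.0 (at least 90% identity over 300 bases). Alternatives were DESeq2 1.42.0, limma-voom (limma 3.58.1), other scalings and filters, a replicate block and leaving out each library. Scripts were tested on simulated data.

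Members and gene lists were chosen with earlier results of these data known. Named genes were the members and, of each list, the 2 with the smallest p and the 2 with the highest FPKM; others are named for their role, or as said, and some genes and sequences are not reported here. The labels do not say whether samples are separate animals or pools, so the spread behind each p-value is that between these libraries and may be technical. No spike-in is named in the labels, so fewer oocytes and less RNA per oocyte cannot be told apart.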

Additional observations from a re-analysis of the deposited data

How the results depend on the processing

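No member passed under any alternative run, by any tool or with any library left out. Over all genes 5 passed, 9 by DESeq2, 7 with the replicate block (5 of them the same genes) and 5 to 12 with 1 library left out. Deviations of same-numbered libraries correlated at 0.15, 0.04 and 0.24 for numbers 1 to 3, and those of different numbers at -0.21 to 0.06. Every library but control replicate 2 correlated best with its own number, a hint from the data and not the design. The labels do not say that a number marks a shared animal or day, so the libraries were not treated as paired. The replicate block changed no member's call. Of the list genes 0 passed, and 0 to 1 with a library left out, the 1 being Nbr1 without metformin replicate 2. The fitted direction was not firm for the members near 0. With a library left out, log2 fold changes ranged from -0.33 to 0.21 for Mfn2, -0.0331 to 0.0269 for Dnm1l, -0.33 to 0.0553 for Fis1, -0.0409 to 0.21 for Mff and -0.0627 to 0.19 for Fundc1; Dnm1l was at -0.0039 with library size only. Mfn1 (-0.26 to -0.03), Opa1 (-0.14 to -0.055), Mief1 (0.08 to 0.64) and Bnip3l (-0.41 to -0.05) kept their sign, and Bnip3l summed with its pseudogene ranged from -0.23 to 0.0093. The cause was not tested. The ratio of Mfn1 to Mfn2 averaged 42.6 in FPKM, 40.1 to 44.6 with a library left out and 43.1 per longest transcript. With no filter Pink1 was also tested and did not pass; its 1 to 9 reads and the 12 to 25 of Mfn2 limit what could be seen.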

Other observations

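A few genes of mitochondrial shape differed strongly between libraries in ways that did not follow the treatment; they were picked after their values were seen. Akap1 encodes an outer-membrane scaffold that tethers protein kinase A, which inhibits DRP1. It had 721, 642 and 164 reads in control and 829, 719 and 106 in metformin libraries, so the library of replicate 3 was low in both groups. Its coefficient of variation was 58.0%, and its log2 fold change between groups was -0.04. Gdap1, an outer-membrane gene linked to fission and mutated in a human inherited neuropathy, had 1221, 1238 and 2941 reads in control and 2324, 1172 and 1478 in metformin libraries, where control replicate 3 and metformin replicate 1 were high. Optn, a ubiquitin-binding mitophagy adaptor gene, had 168, 243 and 114 reads in control and 291, 219 and 135 in metformin libraries, lowest in replicate 3 of each group. Only the members of the lists were looked through for such patterns, and no test was made of them.

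Some other near relatives also differed widely in read count. Rhot1 had 1484 to 3896 reads per library and its paralog Rhot2 had 21 to 25, with part of its exons shared with another annotated gene. Gabarapl2 had 357 to 565 reads, while Gabarap had 6 to 21 and Gabarapl1 had 0 to 2. Bnip3, Bnip3l and Fundc1 had at least 204 reads in each library, whereas Fundc2 had 2 to 6.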
